A study of Mus musculus with 123 samples.

Results

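The loci of 4 genes that mark the primed, post-implantation state of the mouse epiblast were examined in 3 deposited lists of histone H3 lysine 4 methylation peaks, ES1, ES2 and ES3, read here as 3 sets of mouse embryonic stem cells. Members are all peaks that share at least 1 bp with a fixed mm9 window around Otx2 (chromosome 14, 49265000 to 49300000), Pou3f1 (chromosome 4, 124325000 to 124350000), Dnmt3b (chromosome 2, 153465000 to 153520000) or Fgf5 (chromosome 5, 98670000 to 98720000). The rule found 16 of the 60226 peaks in all: 6 of 26292 in ES1, 6 of 21543 in ES2 and 4 of 12391 in ES3. Merging touching or overlapping peaks of the 3 lists gave 6 regions, 3 at Otx2, 2 at Pou3f1, 1 at Dnmt3b and none at Fgf5.

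The series holds 123 droplet-based chromatin immunoprecipitation libraries, in which each droplet adds its own DNA barcode to the chromatin of a cell, 86 made with an antibody to dimethylated (H3K4me2) and 37 with an antibody to trimethylated (H3K4me3) lysine 4. The cells were mESC of the V6.5 strain grown in serum with LIF, mouse embryonic fibroblasts (MEF) and EML, a blood progenitor line. The largest group is 55 H3K4me2 libraries of mESC carrying the whole range of barcodes, followed by pools of mESC and MEF with 24 H3K4me2 and 19 H3K4me3 libraries. The other groups are 10 H3K4me3 libraries of mESC and MEF mixed, 4 H3K4me2 libraries of mESC in a shorter barcode range, 4 H3K4me3 pools of mESC and EML, 4 H3K4me3 pools of EML and MEF, and 3 H3K4me2 libraries of MEF. No source used here ties a list to a mark, to libraries or to a number of cells, so no list stands for a labelled group. With a single list per name there is no replicate and no p-value, and intervals cover counting error only.

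Naive embryonic stem cells resemble the epiblast before implantation. As cells leave that state they pass through a primed state, in which they turn down naive transcription factors, turn on de novo DNA methylation and become ready to form the germ layers. Otx2 and Pou3f1 are transcription factors of this transition, Dnmt3b is one of its de novo DNA methyltransferases, and Fgf5 is a secreted growth factor widely used as a marker of the post-implantation epiblast. Trimethylation of H3 lysine 4 is found at active and poised promoters, many of them rich in CG pairs, and dimethylation is found at enhancers too.

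The promoters of 3 of the 4 genes were in the RefSeq table used here, whose build is GRCm38.p6, and Pou3f1 was not matched. They are shown because many promoters with trimethylated lysine 4 are rich in CG pairs, though the mark behind each list is not known. Their CG pairs are in capitals. Each sequence runs 5′ to 3′ from 250 bases before to 50 bases after an annotated start, at chr5:98253934-98254233 (plus strand) for Fgf5, chr2:153649199-153649498 (plus strand) for Dnmt3b, and chr14:48665060-48665359 and chr14:48667595-48667894 (minus strand) for 2 of the 4 starts of Otx2, those with the most and the fewest CG pairs. These coordinates belong to another build than the peaks and cannot be set beside them.
Fgf5: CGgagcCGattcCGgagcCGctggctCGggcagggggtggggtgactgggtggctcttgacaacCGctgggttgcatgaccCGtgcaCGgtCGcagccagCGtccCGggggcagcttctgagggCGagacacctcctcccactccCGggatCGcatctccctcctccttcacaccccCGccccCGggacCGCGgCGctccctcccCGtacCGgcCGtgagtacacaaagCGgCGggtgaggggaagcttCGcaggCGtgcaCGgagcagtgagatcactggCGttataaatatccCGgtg
Dnmt3b: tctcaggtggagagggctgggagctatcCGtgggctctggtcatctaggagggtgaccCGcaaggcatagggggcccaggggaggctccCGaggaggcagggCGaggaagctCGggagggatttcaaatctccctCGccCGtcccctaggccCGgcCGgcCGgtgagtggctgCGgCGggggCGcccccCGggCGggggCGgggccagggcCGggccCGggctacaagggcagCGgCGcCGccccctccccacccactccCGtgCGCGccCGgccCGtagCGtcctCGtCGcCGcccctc
Otx2, the third start: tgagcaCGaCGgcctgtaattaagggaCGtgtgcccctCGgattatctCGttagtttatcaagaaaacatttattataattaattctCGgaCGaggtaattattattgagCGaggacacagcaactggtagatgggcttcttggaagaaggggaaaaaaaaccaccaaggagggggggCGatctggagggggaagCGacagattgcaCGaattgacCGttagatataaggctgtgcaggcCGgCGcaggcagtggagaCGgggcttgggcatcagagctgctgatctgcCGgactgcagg
Otx2, the first start: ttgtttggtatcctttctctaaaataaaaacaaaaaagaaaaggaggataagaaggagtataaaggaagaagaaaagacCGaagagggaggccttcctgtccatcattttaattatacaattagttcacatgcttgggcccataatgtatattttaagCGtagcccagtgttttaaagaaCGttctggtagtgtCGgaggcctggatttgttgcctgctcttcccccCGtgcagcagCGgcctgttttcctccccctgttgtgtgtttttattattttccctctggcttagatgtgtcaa
The Dnmt3b promoter held 30 CG pairs and the Fgf5 promoter 29, against a median of 7.00 over all 32851 promoters of the table. As many CG pairs were found in 11.7% of all promoters for Dnmt3b and in 12.9% for Fgf5. The 4 starts of Otx2 held 6, 8, 16 and 11 CG pairs, of which 16 was reached by 33.0% and 6 by 56.4% of all promoters. Of the 3 genes with a promoter here, the 2 with the most CG pairs differed in the peak lists. Dnmt3b had a peak in its window in each list and Fgf5 had none. Peaks were not placed relative to promoters, so a link between CG pairs and peaks was not tested.

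Short motifs were searched on both strands of the same windows, and a match describes the letters only. GGGCGG, the GC box bound by Sp1-type factors, was found 4 times in the Dnmt3b promoter, with overlapping matches counted, and once in that of Fgf5, and is present in 35.7% of all promoters. TATAAA, the TATA box, was found at Fgf5 and at the first Otx2 start, and in 13.6% of all promoters. CCAAT was found at the second Otx2 start alone among the 6 promoters (37.4% of all). TAATCC, a site of the OTX2 type, was found at the third Otx2 start (7.06% of all), and the octamer ATTTGCAT, which POU factors bind, at none of the 6 (1.74% of all).

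**Figure D1:**
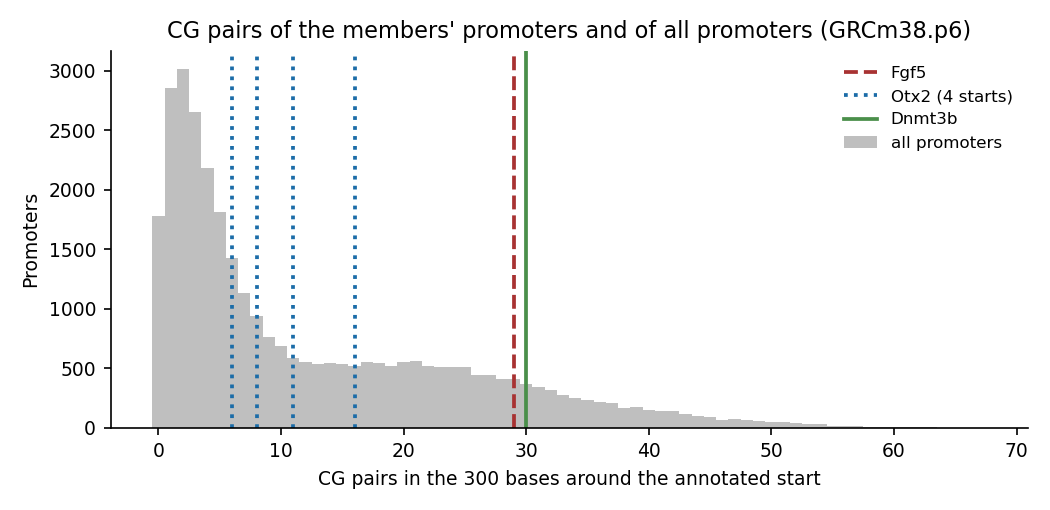
Number of CG pairs in the 300 bases around each annotated start (horizontal axis) and number of promoters with that count (vertical axis, gray bars, 32851 promoters of GRCm38.p6). Lines mark Fgf5 (29), Dnmt3b (30) and the 4 starts of Otx2 (6, 8, 11 and 16); Fgf5 and Dnmt3b lie side by side in the upper tail.

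As deposited, the 3 lists differed at Pou3f1 and held the same regions at Otx2 and Dnmt3b. Of the 6 regions, 4 were called in ES1, ES2 and ES3 alike, a combination that makes up 26.2% of all 31580 regions. The other 2, both at Pou3f1, were called in ES1 and ES2 without ES3, which holds for 23.8% of all regions. None belonged to a single list, as do 27.3% (ES1), 12.8% (ES2) and 2.97% (ES3) of all regions. These shares are not matched by width. The median width was 3474 bp for regions of all 3 lists and 2173 bp for those of ES1 and ES2 without ES3. For single lists it was 1170 bp (ES1), 1025 bp (ES2) and 933 bp (ES3). Of the 15772 regions that ES1 and ES2 had in common, 47.6% had no ES3 peak, so that 2 of 6 without one does not set these genes apart. The lists differ in length, and with each shortened to its 12391 peaks with the most reads, 1 Otx2 region and 0 Dnmt3b regions were still common to all 3. Shortened by score instead, the lists kept all 9 Otx2 peaks, and ES2 lost its Dnmt3b peak. Under either shortening no Pou3f1 region stayed common to ES1 and ES2.

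**Figure D2:**
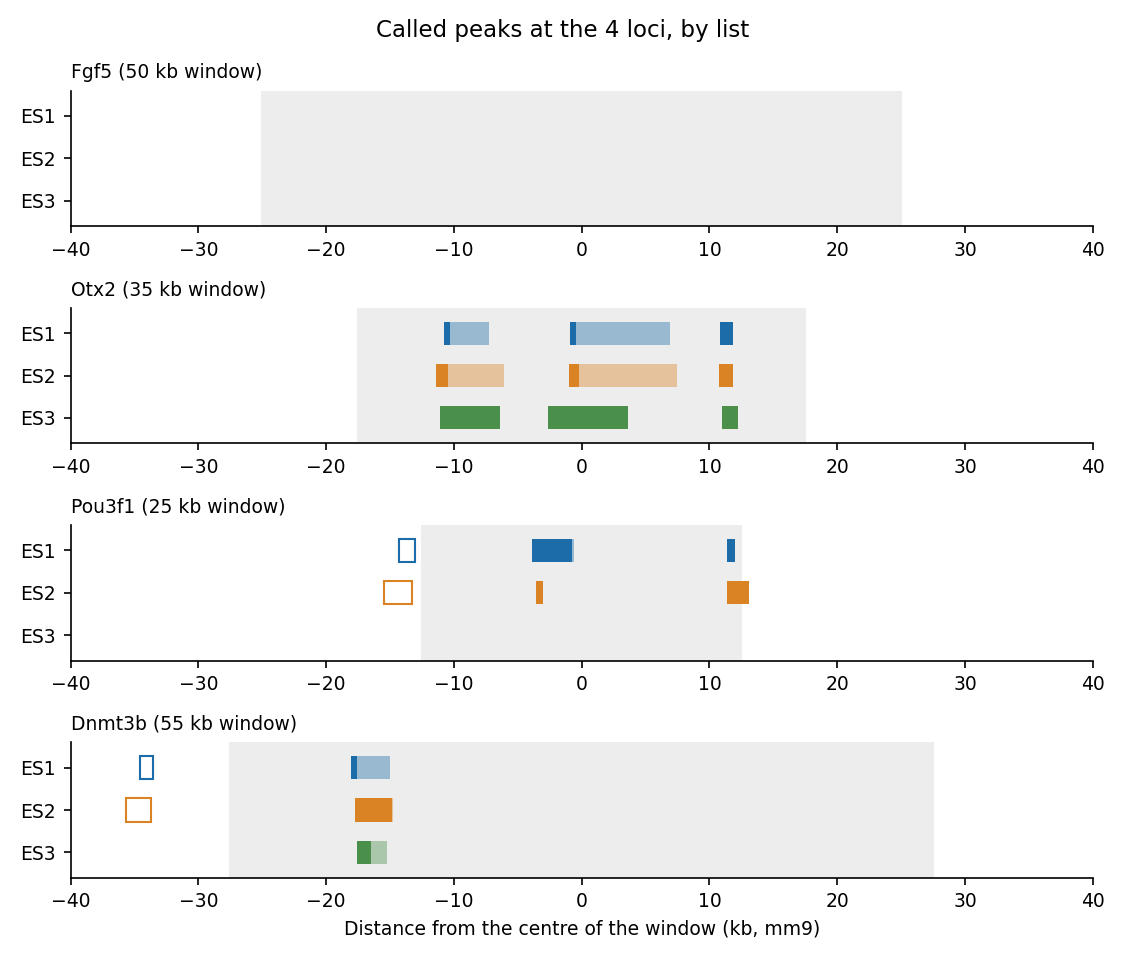
Called peaks of ES1, ES2 and ES3 along the 4 windows (gray), as distance in kb from the centre of each window. Pale bars are whole peaks, dark bars the inner intervals in which reads are known, and open bars peaks within 10 kb outside a window. Otx2 has 3 peaks in every list, Pou3f1 has 2 in ES1 and in ES2 and none in ES3, Dnmt3b has 1 in every list and Fgf5 has none.

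Otx2 encodes a homeodomain transcription factor needed for the anterior epiblast and the head, and in the lists as deposited its window was the most densely covered of the 4 in each list. ES1 peaks covered 12435 bp of its 35 kb window (35.5%), ES2 peaks 14916 bp (42.6%) and ES3 peaks 12133 bp (34.7%). The covered length at Otx2 was nearly alike in ES1 and ES3 as deposited, while over the whole genome peaks covered 2.43% of the bases in ES1, 1.77% in ES2 and 0.865% in ES3. On chromosome 14 itself the covered shares were 2.11%, 1.62% and 0.807%, so the Otx2 window exceeded its chromosome 16.9 times in ES1, 26.4 times in ES2 and 42.9 times in ES3. The increase of that ratio follows the covered share of the chromosome, which differs between the lists more than the locus does. Among 52767 bins of 50 kb tiled over the genome, 0.949% were covered at least as densely in ES1, 0.220% in ES2 and 0.0758% in ES3. With bins as wide as the window the shares were 1.18%, 0.341% and 0.125%. The coverage at Otx2 and its first place depend on the first 2 peaks of ES1 and ES2, whose listed reads come from a short inner interval. In lists of equal length by reads these peaks drop out, and the Otx2 window was covered to 2.90% in ES1 and 3.25% in ES2, against 34.7% in ES3, less than Pou3f1 in ES1 (13.1%) and less than Pou3f1 (4.42%) and Dnmt3b (5.47%) in ES2. In lists of equal length by score the covered shares of Otx2 were those of the deposited lists.

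**Figure D3:**
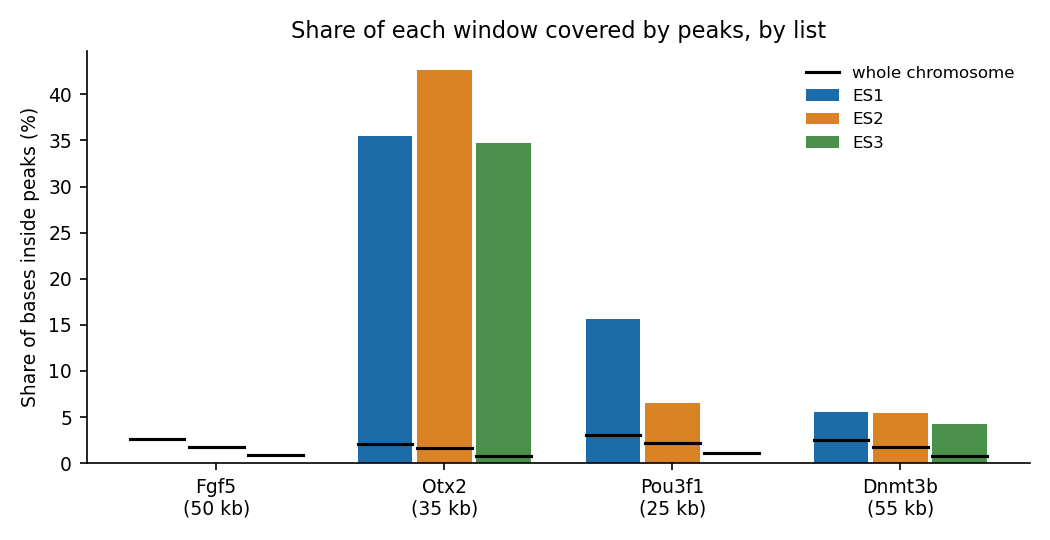
Share of the bases of each window that lies inside peaks (vertical axis, bars, in percent) for ES1, ES2 and ES3 as deposited, with the covered share of the whole chromosome as a black line. Otx2 stands between 34.7% and 42.6% in every list, Pou3f1 is at 15.6% in ES1, 6.56% in ES2 and 0 in ES3, and Dnmt3b is between 4.24% and 5.51%.

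The first Otx2 region spanned 49271084 to 49276414 (5331 bp). ES1 had a peak of 3562 bp there, ES2 of 5331 bp and ES3 of 4660 bp. The ES1 peak lay wholly inside the ES2 and ES3 peaks, and the 3562 bp common to all lists made up 66.8% of the region. As wide a peak was found for 18.0% of ES1 peaks, 5.96% of ES2 peaks and 4.25% of ES3 peaks, each counted within its own list.

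The second Otx2 region was the widest of the 6 and the one whose edges differed most. It spanned 49279901 to 49289942 (10042 bp), and ES1 had a peak of 7857 bp, ES2 of 8448 bp and ES3 of 6187 bp. ES1 and ES2 had nearly the same borders, 66 bp apart at the start and 525 bp apart at the end. The ES3 peak began 1660 bp before the ES1 peak and ended 3330 bp before its end, so it covered 57.6% of the ES1 peak and was itself covered by ES1 to 73.2%. The 4527 bp common to all lists made up 45.1% of the region. As wide a peak was rare in each list, 3.89% of peaks in ES1 and 1.82% in both ES2 and ES3.

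The third Otx2 region, 49293233 to 49294734, was narrow: the ES1 peak had 1016 bp, the ES2 peak 1137 bp and the ES3 peak 1286 bp, of which 873 bp were common to all. ES1 had gaps of 6311 bp before and 3888 bp after its middle peak, ES2 of 5080 bp and 3290 bp, and ES3 of 3801 bp and 7361 bp. The same 3-part layout was thus present in each list, with the middle peak of ES3 placed nearer to the first. Which of these regions hold the starts of Otx2 was not analysed here, since no mm9 annotation was used.

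The authors give each peak a score, which was read as read density relative to the mean of the chromosome, and from which reads were recovered. The score covers an inner interval that begins at the start of the peak and can be a small part of it. At the first 2 Otx2 regions the ES1 inner intervals were 500 bp each, 14.0% and 6.36% of the peaks, with 10 reads each, and those of ES2 were 931 bp with 12 reads and 780 bp with 13 reads. In ES3 they were the whole peaks, with 54 reads (95% interval 40.6 to 70.5) and 64 reads (49.3 to 81.7), more than nearly all other ES3 peaks: 1.08% and 0.678% of ES3 peaks held as many. These reads count different stretches and cannot be compared between lists. The ranks within ES3 share this limit, since the inner interval was the whole peak for 67.7% of ES3 peaks.

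At the third Otx2 region the inner interval made up at least 90% of the peak in each list, so each score there describes nearly the whole peak. The stretches scored still differ. The ES3 peak ended 413 bp past the end of the ES1 peak. The 873 bp common to these 2 peaks made up 85.9% of the ES1 peak and 67.9% of the ES3 peak. Read density over the same bases was thus not compared here either. ES1 held 24 reads (15.4 to 35.7) with a score of 30.9, ES2 19 reads (11.4 to 29.7) with a score of 19.2 and ES3 15 reads (8.40 to 24.7) with a score of 14.5. The score was 2.12 times as high in ES1 as in ES3, with an exact interval of 1.07 to 4.35. It was 1.60 times as high in ES1 as in ES2 (0.842 to 3.10) and 1.32 times as high in ES2 as in ES3 (0.637 to 2.80), intervals that both include 1. Of the 14 score ratios between lists at member regions, only that of 2.12 had an interval without 1. No allowance was made for their number or for the unlike stretches scored. A score at least 1.5 times as high in ES1 as in ES3 was found at 16.8% of the 4074 regions with such inner intervals in both lists, whose median ratio was 1.09. A score at least 1.5 times as high in ES1 as in ES2 was found at 20.4% of 6609 such regions. The score lay above the median chromosome 14 peak in ES1 (18.4) and ES2 (15.3), and below it in ES3 (15.7).

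**Figure D4:**
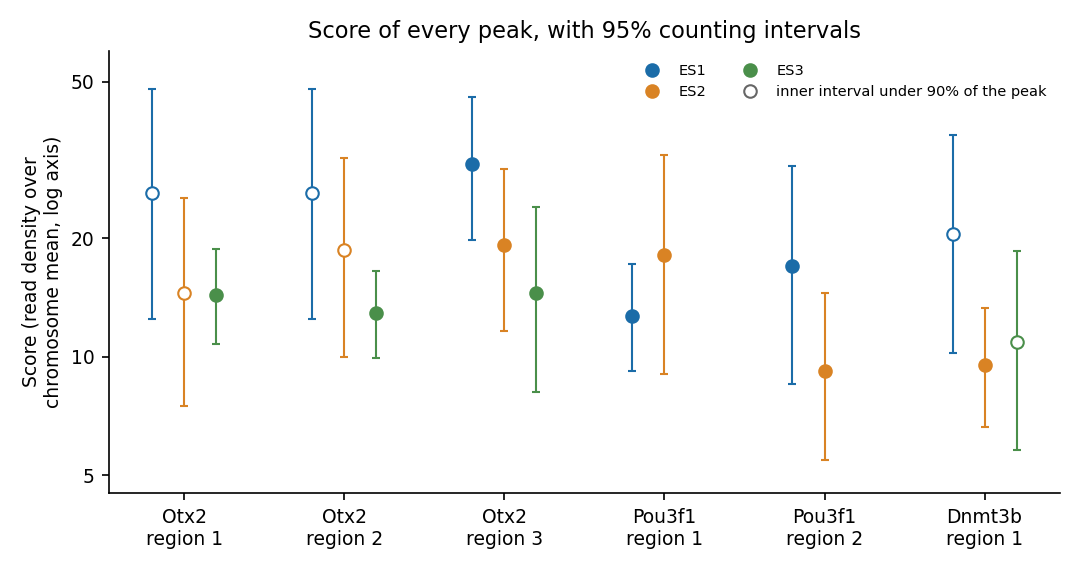
Score of each of the 16 peaks (vertical log axis, read density over the chromosome mean) by region, for ES1, ES2 and ES3. Bars are exact 95% Poisson intervals of the reads behind the score and cover counting error only; open symbols mark peaks whose inner interval is under 90% of the peak, where the score describes only its first part. The intervals of the lists overlap at every region.

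Pou3f1, also called Oct6, encodes a POU-domain transcription factor of the primed epiblast and later of the nervous system. Its 2 regions were the only member regions that ES3 lacked. Peaks covered 15.6% of its 25 kb window in ES1 and 6.56% in ES2, against 3.09% and 2.20% of chromosome 4, and nothing in ES3. Bins of 50 kb covered at least as densely made up 4.75% in ES1 and 8.53% in ES2. With the lists shortened to equal length by score, ES1 kept the peak of its second region (2.42% of the window) and ES2 that of its first (2.14%). Shortened by reads, ES1 kept the peak of its first region (13.1%) and ES2 that of its second (4.42%). Neither shortening left a Pou3f1 region common to ES1 and ES2.

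The first Pou3f1 region, 124333590 to 124336872, was unequal between the lists that had it. The ES1 peak was 3283 bp wide and held 43 reads (31.1 to 57.9) over 3169 bp, with a score of 12.7. The ES2 peak was 534 bp wide and held 11 reads (5.49 to 19.7), with a score of 18.1, and it lay wholly inside the ES1 peak, of which it covered 16.3%. The score was 0.703 times as high in ES1 as in ES2, with an interval of 0.356 to 1.51 that includes 1. These scores average over 3169 bp in ES1 and 534 bp in ES2, so read density over the same bases was not compared. At the second region, 124348892 to 124350617, the ES2 peak was the wider one. The ES1 peak had 606 bp and 11 reads (5.49 to 19.7), the ES2 peak 1722 bp and 18 reads (10.7 to 28.4). The ES2 peak reached 617 bp past the window. There the score was 17.0 in ES1 and 9.20 in ES2, a ratio of 1.85 (0.791 to 4.14), again over stretches of unlike length.

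ES1 peaks with more reads met an ES3 peak more often, so the Pou3f1 peaks were set beside other peaks of their list by reads. With 43 reads, the first ES1 peak lies near the lower end of the top decile of its list (38 to 1087 reads), of which 78.3% (76.7 to 79.9) overlapped an ES3 peak. Among the 1155 ES1 peaks with 38 to 48 reads, 70.9% (68.2 to 73.5) did, and in the decile below (28 to 37 reads) 59.6% (57.6 to 61.6). Among ES1 peaks of similar width (2484 to 3323 bp), 46.4% (44.5 to 48.3) overlapped ES3. The deciles rank reads of the inner interval, which was the whole peak for 59.0% of ES1 peaks and 96.5% of this peak. The second ES1 peak lies in a decile of which 25.5% (23.6 to 27.4) overlapped ES3, and the 2 ES2 peaks in deciles of which 29.7% and 41.9% did. By contrast, the ES1 peaks at the first 2 Otx2 regions, with 10 reads, were found in ES3 although 23.5% of the ES1 peaks of their decile were, but their reads count only the first 500 bp of wide peaks.

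**Figure D5:**
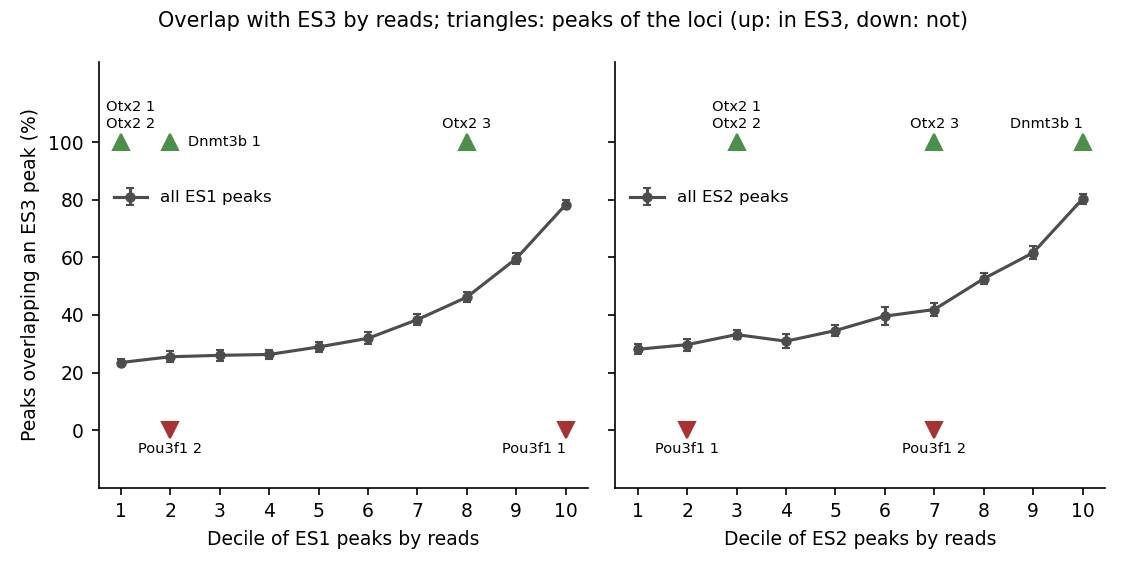
Share of ES1 peaks (left) and ES2 peaks (right) that overlap an ES3 peak (vertical axis, percent) by decile of recovered reads (horizontal axis), with exact 95% binomial intervals. Triangles place the peaks of the loci in their decile. They point up at 100 where the peak overlaps ES3 and down at 0 where it does not. The first Pou3f1 peak of ES1 is in the top decile, where 78.3% overlap, and is not in ES3. Among ES1 peaks of similar width, 46.4% overlap. Reads are those of the inner interval, the whole peak for 59.0% of ES1 peaks.

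The stretch without an ES3 peak extended past the Pou3f1 window. The nearest ES3 peaks lay 40.5 kb before and 27.4 kb after it. An ES3 peak was missing from 84.9% of the 50 kb bins of the genome, and ES3 gaps of this length were not counted. In ES1 and ES2 a further peak ended 542 bp and 805 bp before the window, just outside the rule, of 1233 bp with a score of 20.7 in ES1 and of 2165 bp with a score of 17.6 in ES2. ES3 had 885 peaks on chromosome 4, against 1788 in ES1 and 1511 in ES2, and the fewest reads behind a chromosome 4 peak were 9 in each list.

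Dnmt3b encodes a DNA methyltransferase that sets new methylation in the epiblast. A single region, 153474432 to 153477732 on chromosome 2, was called in its 55 kb window, in all 3 lists. ES1 had a peak of 3028 bp, ES2 of 3008 bp and ES3 of 2331 bp, the ES3 peak lying inside both others. The common 2331 bp made up 70.6% of the region, the largest common share of the 6 regions, and all borders were within 492 bp at the start and 478 bp at the end. The borders of the third Otx2 region were closer, within 216 bp at the start and 413 bp at the end.

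ES1 peaks covered 5.51% of the Dnmt3b window, ES2 peaks 5.47% and ES3 peaks 4.24%, which were 2.18, 3.11 and 5.58 times the covered share of chromosome 2. Bins of 50 kb covered at least as densely made up 12.6%, 9.95% and 6.67%. Of all bins, 74.1% in ES1, 77.4% in ES2 and 84.9% in ES3 held no peak. In the bins with a peak the median covered share was 5.28%, 4.62% and 3.77%, a little below the Dnmt3b window. The reads were 11 (5.49 to 19.7) over 501 bp in ES1, 34 (23.5 to 47.5) over 2921 bp in ES2 and 13 (6.92 to 22.2) over 1048 bp in ES3, with scores of 20.5, 9.54 and 10.9. The ES1 score, from the first 501 bp alone, was 1.88 times that of ES3 (0.761 to 4.54) and 2.14 times that of ES2 (0.980 to 4.34), and the ES2 score was 0.875 times that of ES3 (0.450 to 1.81). All 3 intervals include 1, and the intervals compared differ in length.

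The surroundings of the Dnmt3b peak also differed between the lists. ES1 and ES2 had another peak 6085 bp and 6201 bp before the window, of 981 bp with 15 reads and of 1935 bp with 19 reads, and their next peak on the other side lay 46.6 kb after it. In ES3 the nearest peaks were 45.7 kb before and 641 kb after the window. Of the 50 kb bins of the genome, 84.9% held no ES3 peak, and how many ES3 gaps are as long was not counted. ES3 had 772 peaks on chromosome 2, against 1940 in ES1 and 1434 in ES2.

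Fgf5 had no peak in any list. Of the 50 kb bins of the genome, 29.0% held a peak of at least 1 list. A bin without a peak is thus the common case over the genome, but windows placed on genes were not counted. The nearest peaks lay 54.4 kb before the window in ES1, 73.7 kb in ES2 and 72.4 kb in ES3, and 563 kb, 564 kb and 564 kb after it. The stretch without a peak of any list was 668 kb long, and 720 of the 31560 gaps between neighbouring regions were at least as long. These gaps held 43.4% of the bases of the genome, so a position inside so long a stretch is common over all bases. Positions at genes were not counted apart. It was bounded by a region of 1462 bp called in ES1 alone and by one of 909 bp called in all 3 lists.

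The lists hold no value where no peak was called, so the Fgf5 window is not shown to be without the mark. On chromosome 5 ES1 averaged a read per 984 bp, ES2 per 901 bp and ES3 per 1016 bp, which would put 50.8, 55.5 and 49.2 reads in the window at the chromosome mean. The called peaks of this chromosome held at least 9 reads in each list and had scores of at least 6.67 in ES1, 6.30 in ES2 and 6.85 in ES3. In the lists as deposited, Fgf5 had a CG-rich annotated promoter and no called peak in its window. Dnmt3b had a CG-rich promoter and a single peak in each list, and Otx2 had starts with fewer CG pairs and 3 peaks in each list. Whether any of these peaks lies at a promoter was not analysed, and a link to CG pairs was not tested. The CG pairs of the Pou3f1 promoter were not counted.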

How the data were processed

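Reads were aligned with Bowtie to mm9, per the submitters' processing notes, with the caller of the peaks not given in the sources used here. A peak has a position, an inner interval and a score as deposited by the authors, whose unit is not given in the files. The score multiplied by the inner length was a whole multiple (tolerance 0.001) of a unit fixed for each chromosome and list, in 60226 of 60226 peaks over 20 chromosomes. The multiple was taken as reads, an assumption, and the unit as chromosome length over reads, which gave ES1 2441443, ES2 2717742 and ES3 2439853 reads in all. Whether duplicates were removed is not given. The recovery and the merging were tested on simulated lists. Reads have exact Poisson, shares Clopper-Pearson, and score ratios exact conditional binomial 95% intervals. Windows were taken as both ends included, and positions are 1-based. Python 3.11.15, numpy 2.4.6, scipy 1.17.1 and matplotlib 3.10.9 were used. All 4 members are described, and every peak that met the rule is accounted for. The members, windows and motifs were chosen with earlier results of these data known. Lists of other primed, naive and fibroblast genes, and stem cell markers, were not used here, since no mm9 annotation was given, so the labelled cell type was not checked. Alternatives were merging within 1 kb, lists of equal length, midpoints, and windows extended by 10 kb.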

Additional observations from a re-analysis of the deposited data

How the results depend on the processing

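Of 188 values computed under an alternative, 155 stayed within 1.5 times the main count or inside the interval and 33 did not. Many of the 155 could not move, such as counts of 0 with no peak near, so the tally is not a measure of robustness. With lists shortened by reads, 15 values moved beyond these limits and 16 did not. Midpoints inside the window, run on the peak counts alone, and merging within 1 kb changed no value they were run on beyond 1.5 times, and ratios per reads of the whole list, added after the data were seen, stayed inside their intervals. The merging had nothing to join, since neighbouring member peaks of a list lay at least 3290 bp apart. Shortening each list to 12391 peaks by reads left 1 Otx2 peak of 1016 bp in ES1 and 1 of 1137 bp in ES2, with 1 Otx2 region in all lists and 2 in ES3 alone. It left 1 Pou3f1 peak in ES1 and 1 in ES2 (1 region of ES1 alone, 1 of ES2 alone and 0 of both), and 0 Dnmt3b peaks (0 bp) in ES1, with 0 regions in all lists and 1 in ES2 and ES3. This ranking uses reads of the inner interval alone, so it drops wide peaks with a short one. Shortening by score left 1 Pou3f1 peak in ES1 (606 bp) and 1 in ES2 (534 bp), in different regions, and 0 Dnmt3b peaks (0 bp) in ES2. Windows extended by 10 kb gave 4421 bp for Pou3f1 in ES2 and 2 Dnmt3b peaks in ES1 and in ES2 (4943 bp), from peaks just outside and, for Pou3f1, the 617 bp of a member peak that lie past the window. The absence of Fgf5 peaks in all lists and of Pou3f1 peaks in ES3 could not change under any of these alternatives. The nearest peaks lay 54.4 kb from the Fgf5 window and, in ES3, 27.4 kb from the Pou3f1 window, beyond the 10 kb extension. The share of ES1 peaks overlapping ES3 was 70.9% within 5 reads of the first Pou3f1 peak, a class added after the data were seen, against 78.3% in its decile. In the 250 bases before the start alone, Fgf5 had 0 TATAAA matches. No paired analysis was possible because the lists carry no replicate numbers. With 10 to 64 reads behind a member peak, a score ratio whose interval includes 1 shows no difference detectable at this depth.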
